A study of Mus musculus with 19 samples.

Results

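Acod1, Calca, Hdc, Il13ra2, Fst, Lrp2, Gata2 and Sox17 were described across endometrial libraries of estrus and of day 3.5 post coitum (pc). The 8 genes were chosen by name as epithelial genes of the progesterone response, out of 49089 genes in the deposited counts. All 8 passed a filter of 3 CPM, that is counts scaled to a common library size, in at least 3 of 19 libraries, as did 17222 genes in total. Acod1 and Calca passed through the mated libraries alone, and Fst, with 2 estrus libraries above 3 CPM, needed them too.

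All animals were wild-type C57Bl/6 females that carried no transgene. Virgin females at estrus gave 3 libraries, and females mated with intact Balb/c males, collected on day 3.5 pc, gave 4 (INT). The study's methods place collection of virgin females late in the evening of the day proestrus was detected, and of INT females at midday. Day 3.5 pc precedes embryo attachment. A further 12 libraries came from females mated with surgically modified Balb/c males, in 3 sets of 4 whose library names are SVX, SVX_VAS and VAS. The titles of these 12 libraries name other surgeries than their library names do, so the sets are called by the library names and no surgery is attached to them. The mated females were 8 to 14 weeks old. By the study's methods, the endometrium was scraped from the myometrium, and the study's results section calls its samples pooled. How many animals made up a pool is not given in the sources used here, so each p-value measures the spread between pools.

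Progesterone acts through the progesterone receptor, a ligand-activated transcription factor. Before implantation it halts the estrogen-driven growth of the uterine epithelium and induces epithelial genes, among them the signal Ihh, which acts on the stroma beneath. Acod1 encodes the mitochondrial enzyme that makes itaconate from cis-aconitate, Calca encodes calcitonin and the peptide CGRP, and Hdc encodes histidine decarboxylase, which makes histamine. Il13ra2 encodes the decoy receptor of interleukin 13, follistatin (Fst) binds and blocks activins, and Lrp2 encodes megalin, a large endocytic receptor. GATA2 and SOX17 are transcription factors known to act together with the progesterone receptor in the uterus. No library was made from females treated with the hormone alone, so the contrast between estrus and day 3.5 pc differs in hormone state, mating and time together. The libraries hold whole endometrium, in which fewer cells of a type and less RNA per cell cannot be told apart.

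The promoters of the members were examined for short motifs because 6 of these genes moved together. In RefSeq's annotation of GRCm38.p6, a promoter sequence from 250 bases before to 50 bases after the start was found for 6 of the 8 members, and Fst and Sox17 had no entry. Acod1 is shown because it rose most, and the other 3 because they hold a motif. The 250 bases before the start are given 5′ to 3′ on the strand of the gene, with a motif match in capitals.
Acod1, chr14:103046762-103047011, plus strand: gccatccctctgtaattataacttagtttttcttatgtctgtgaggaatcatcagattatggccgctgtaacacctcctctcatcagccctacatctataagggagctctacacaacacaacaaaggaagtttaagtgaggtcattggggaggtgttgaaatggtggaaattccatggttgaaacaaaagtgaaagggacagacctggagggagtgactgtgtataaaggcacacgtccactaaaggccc
Calca, chr7:114636358-114636607, minus strand: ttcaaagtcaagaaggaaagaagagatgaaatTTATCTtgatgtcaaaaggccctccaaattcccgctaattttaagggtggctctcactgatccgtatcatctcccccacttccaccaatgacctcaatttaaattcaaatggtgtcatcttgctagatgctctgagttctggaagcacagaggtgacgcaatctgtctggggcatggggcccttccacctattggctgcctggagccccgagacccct
Hdc, chr2:126618679-126618928, minus strand: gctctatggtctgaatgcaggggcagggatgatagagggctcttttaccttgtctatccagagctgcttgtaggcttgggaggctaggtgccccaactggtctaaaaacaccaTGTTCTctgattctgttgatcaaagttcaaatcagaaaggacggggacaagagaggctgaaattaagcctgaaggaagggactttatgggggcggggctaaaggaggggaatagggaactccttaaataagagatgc
Il13ra2, chrX:147429193-147429442, minus strand: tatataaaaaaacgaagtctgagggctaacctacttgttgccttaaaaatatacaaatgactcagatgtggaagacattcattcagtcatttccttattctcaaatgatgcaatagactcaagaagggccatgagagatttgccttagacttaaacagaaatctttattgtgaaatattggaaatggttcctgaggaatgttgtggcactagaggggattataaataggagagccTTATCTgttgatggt

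Both strands of the 6 promoters were searched for 5 motifs, none of which overlapped another in a match. The half-site AGAACA of the hormone response element lay 137 bases before RefSeq's start of Hdc, as its reverse complement, and 19% of 27025 promoters held it. The GATA motif AGATAA, also as its reverse complement, lay 218 bases before the start of Calca and 15 bases before that of Il13ra2, and 11.4% of promoters held it. The SOX motif ACAATG, held by 12.8% of promoters, was in none of the 6. The full element GNACANNNTGTNC and the estrogen response element GGTCANNNTGACC, held by 0.459% and 0.0666% of promoters, were in none of them either. The Hdc window lies within the gene as GENCODE places it, because RefSeq's start is downstream of GENCODE's, and the last bases of the Acod1 window also lie within that gene. A match is a description of letters in this window and no measurement of binding.

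In the GRCm38 coordinates of the deposited counts, the 8 protein-coding genes lie at chr14:103046977-103056573 (Acod1, plus strand), chr7:114631478-114636357 (Calca, minus), chr2:126593667-126619299 (Hdc, minus), chrX:147383476-147429192 (Il13ra2, minus), chr13:114452262-114458730 (Fst, minus), chr2:69424340-69586065 (Lrp2, minus), chr6:88193891-88207032 (Gata2, plus) and chr1:4490931-4497354 (Sox17, minus). Exons of Sox17 share 804 bases with Gm37587 on the opposite strand, and those of Fst share 68 with Gm47040. Whether strand was used in counting is not given in the sources used here, so reads of these overlaps may be uncertain. Counts of Calca do not separate calcitonin from CGRP transcripts.

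Libraries held 15487788 to 31781270 counts at estrus, 14201095 to 17420572 in INT, 12661266 to 13799614 in SVX, 13789824 to 20525568 in SVX_VAS and 14040286 to 18258677 in VAS. VAS libraries 2 and 3 stood apart from the other 17. Their TMM scaling factors were 1.29 and 1.33 against 0.848 to 1.02 in the others, the nuclear RNA Malat1 took 0.0703% and 0.0723% of their counts against 0.724% to 1.41%, and 384 genes above 5 CPM in the other 17 were under 0.5 CPM in both. Log2 fold changes of the members in VAS against estrus, and those of other genes printed for VAS, are therefore also given without this pair. Values per library are CPM scaled with the TMM factors.

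In each of the 16 mated libraries, 6 of the 8 members lay above the highest estrus library, and Gata2 and Sox17 did not in all of them. In INT against estrus, edgeR's quasi-likelihood test called a gene when its Benjamini-Hochberg false discovery rate (FDR) over all 17222 genes was 0.05 or less and its log2 fold change (logFC) past the study's cutoff in size, which corresponds to a fold of about 1.5. Acod1, Calca, Lrp2, Fst, Hdc and Il13ra2 rose, and none fell. Of all genes tested 33.6% were called, with 20.9% higher. The same 6 members were the ones whose INT libraries did not overlap the estrus libraries, as 62.3% of all genes did not. Since Acod1, Calca and Fst passed the filter only through groups where they were high, these counts describe the members and are set in no test against all genes.

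**Figure D1:**
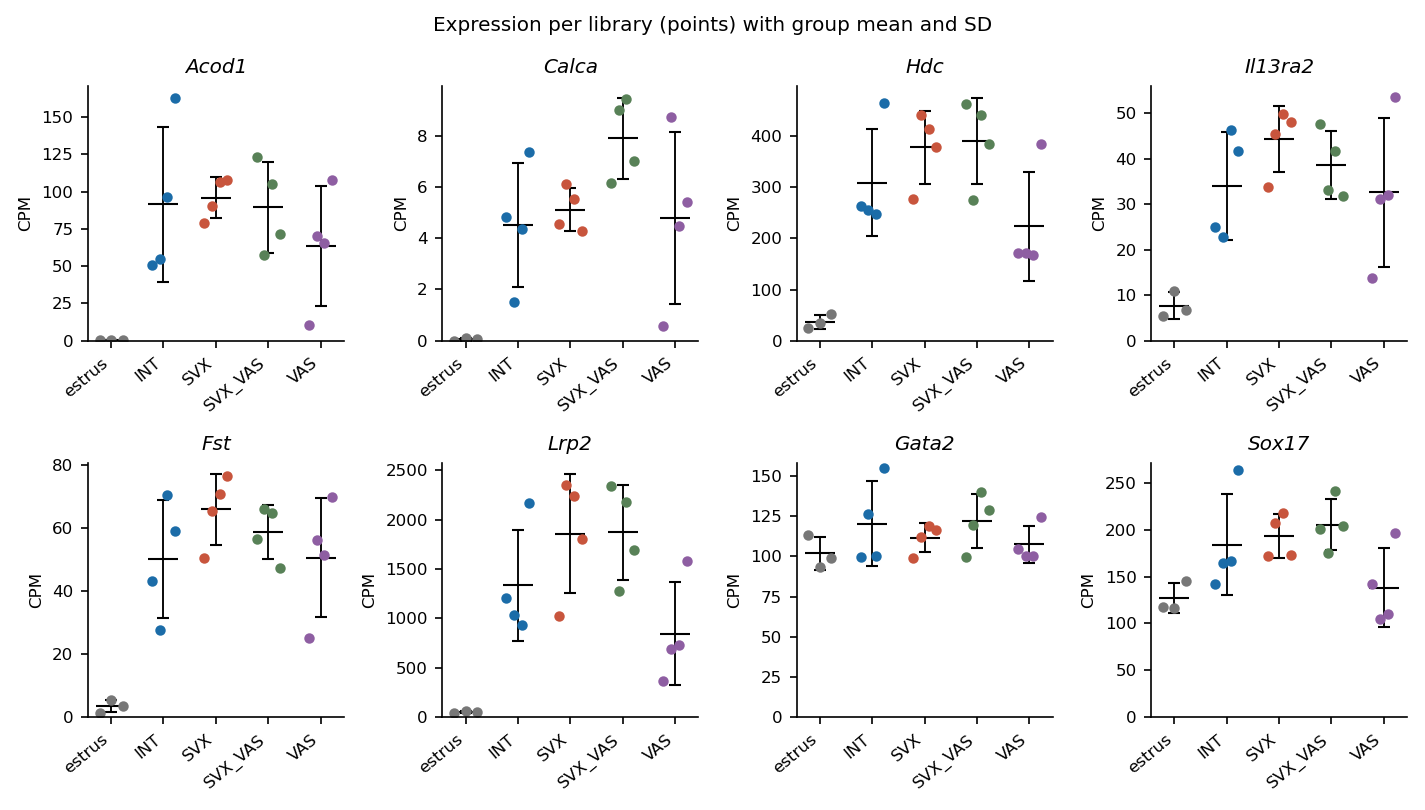
Expression of the 8 members in CPM (vertical axes, linear from 0, a different range in each panel) in each of 19 libraries (points) of estrus, INT, SVX, SVX_VAS and VAS (horizontal axes), with the group mean (horizontal line) and SD (bars). Acod1 lay at 0.527 CPM or less in the 3 estrus libraries and at 10.6 CPM or more in the 16 mated ones, while Gata2 lay between 93.2 and 155 CPM throughout.

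The enzymes Acod1 and Hdc both rose. Acod1 had 0.177, 0.214 and 0.527 CPM in the estrus libraries, from 3, 6 and 7 counts. INT libraries 1 to 4 had 51.0, 55.1, 96.7 and 163 CPM. Estrus was near 0 in each library, and the groups were far apart. The logFC was 8.31 (SE 0.87, FDR 4.64e-06), the second largest rise of 17222 genes, and the ratio of the counts, scaled by library size, was 333 (95% interval 205 to 582.7, counting error only). Limma-voom did not call Acod1 in INT (FDR 0.0916) or in the other mated groups (FDR 0.0754 to 0.101).

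Hdc was already measurable at estrus, with 23.8, 33.7 and 52.3 CPM. INT libraries had 264, 256, 248 and 465 CPM. The first 3 INT libraries were close together and the fourth lay above them, and all were above the highest estrus library. The logFC was 3.08 (SE 0.38, FDR 1.27e-05), a fold of 8.44 (95% interval 4.85 to 14.7).

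Calca, the ligand gene among the members, had the lowest level per length of the 8 at both stages. Its counts in estrus libraries 1, 2 and 4 were 0, 3 and 1, or 0, 0.107 and 0.0753 CPM. INT libraries had 4.81, 1.5, 4.36 and 7.37 CPM, from 64, 24, 77 and 106 counts. INT library 2 was the lowest and still lay above each estrus library. Over the group, a ratio of 64.4 of INT to estrus rested on 4 counts at estrus and had a 95% interval of 24.9 to 238 (counting error only). The fitted logFC was 5.93 (SE 0.91, FDR 8.12e-05), and limma-voom did not call Calca in INT (FDR 0.0787), SVX (FDR 0.0539) or VAS (FDR 0.0668). Without estrus library 2, which held 3 of the 4 counts, it was 6.76.

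The receptors Il13ra2 and Lrp2 differed in how far they rose. Il13ra2 had 5.43, 11 and 6.70 CPM at estrus and 25.0, 22.8, 46.4 and 41.7 CPM in INT. INT libraries 1 and 2 were lower than 3 and 4, and the groups did not overlap. With a logFC of 2.13 (SE 0.39, FDR 3.64e-04), Il13ra2 showed the smallest rise of the 6 called members. Lrp2 had 42.9, 64.6 and 53.8 CPM at estrus and 1208, 1035, 937 and 2166 CPM in INT. Its logFC was 4.63 (SE 0.51, FDR 6.22e-06), a fold of 24.8 (95% interval 11.7 to 52.8). INT library 4 was the highest of its group for Lrp2, as it was for Acod1, Calca, Hdc, Gata2 and Sox17. Without it the logFC in INT was 7.88 for Acod1, 5.59 for Calca, 2.81 for Hdc, 4.30 for Lrp2, 0.094 for Gata2 and 0.32 for Sox17, and the same 6 members were called.

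Fst, the secreted inhibitor, had 1.48, 5.49 and 3.54 CPM at estrus. INT libraries had 43.4, 27.6, 70.4 and 59.2 CPM. The lowest INT library was well above the highest estrus library. The logFC was 3.81 (SE 0.44, FDR 8.44e-06), a fold of 14 (95% interval 7.33 to 26.8).

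The transcription factors Gata2 and Sox17 overlapped between the stages. Gata2 had 113, 93.2 and 99.1 CPM at estrus and 99.7, 126, 100 and 155 CPM in INT. Its logFC of 0.24 (95% interval -0.08 to 0.56, FDR 0.204) missed the threshold, and its interval lay below the cutoff on the logFC. Sox17 had 118, 117 and 146 CPM at estrus and 142, 164, 167 and 263 CPM in INT. Only INT library 1 fell within the estrus range. The logFC of Sox17 was 0.54 (95% interval 0.06 to 1.01, FDR 0.0577) and missed both cutoffs, although 2 alternatives called it, upper quartile scaling (FDR 0.0225) and the fit without INT library 1 (FDR 0.0297).

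The levels per length changed order between the stages. At estrus, in CPM per kb of exon (mean ± SD, n = 3), Sox17 (26.6 ± 3.41) and Gata2 (18.9 ± 1.92) came first, ahead of Hdc (5.73 ± 2.26), Il13ra2 (3.38 ± 1.28), Lrp2 (3.22 ± 0.65), Fst (1.5 ± 0.86), Acod1 (0.117 ± 0.073) and Calca (0.0361 ± 0.0326). Il13ra2 and Lrp2 did not differ beyond their spread, and the ranges of Hdc and Il13ra2 overlapped, while those of the other neighbours did not. In INT (n = 4), Lrp2 (80.0 ± 33.8) came first, then Hdc (48.3 ± 16.4), Sox17 (38.6 ± 11.3), Acod1 (34.8 ± 19.8), Gata2 (22.3 ± 4.89), Fst (21.5 ± 8.0), Il13ra2 (14.9 ± 5.19) and Calca (2.68 ± 1.43). Of the neighbours in this order, only Il13ra2 and Calca had ranges that did not overlap.

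The other 3 sets of mated females gave the same count or 1 more. These comparisons share the estrus libraries with INT against estrus, so they are no separate evidence, and their values are given side by side. In SVX 7 of 8 members were called higher (41.6% of all genes were called, 23.1% higher), in SVX_VAS 7 of 8 (38.6% called, 22.2% higher) and in VAS 6 of 8 (40.6% called, 23.3% higher). The groups did not overlap for 7, 7 and 6 members, as they did not for 70.9%, 67.5% and 55% of all genes. None of the 8 was called lower, and the additional member was Sox17. Without VAS libraries 2 and 3 the counts in INT, SVX, SVX_VAS and VAS were 6, 7, 7 and 6. That fit called 6467, 7804, 7342 and 6152 of all 16949 genes tested.

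**Figure D2:**
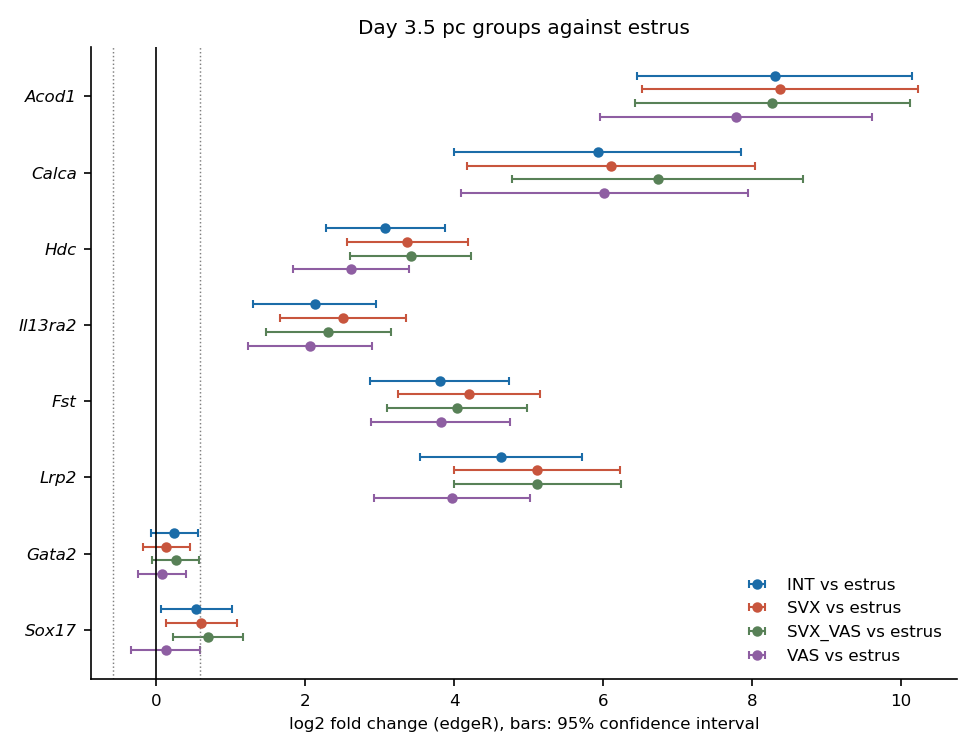
Log2 fold change of the 8 members (rows) against estrus from edgeR's fit of all 19 libraries (horizontal axis), with 95% confidence intervals as bars, for INT, SVX, SVX_VAS and VAS; dotted lines mark the cutoff on the logFC in either direction. Acod1 lay between 7.79 and 8.38 in the 4 comparisons, and each interval of Gata2 crossed 0.

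Acod1 had 78.9, 90.6, 106 and 108 CPM in SVX libraries, 124, 57.5, 105 and 71.4 in SVX_VAS and 10.6, 70.2, 65.6 and 108 in VAS. The logFC against estrus was 8.38 in SVX, 8.28 in SVX_VAS and 7.79 in VAS (edgeR, FDR 2.20e-06, 3.22e-06 and 4.52e-06). VAS library 1 had the lowest level of the 16 mated libraries. It still lay 20.1 times above the highest estrus library. Without VAS libraries 2 and 3 the logFC of VAS was 7.69.

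Calca had 4.57, 6.09, 5.52 and 4.27 CPM in SVX, 6.14, 8.98, 9.43 and 7.02 in SVX_VAS and 0.560, 8.71, 4.49 and 5.4 in VAS. Its logFC was 6.11, 6.74 and 6.02, and FDR was 3.86e-05, 2.36e-05 and 5.25e-05 by edgeR. All of these rest on the same 4 counts at estrus. Without VAS libraries 2 and 3 the logFC of VAS was 5.27. Expressed as a ratio of counts, SVX lay 74.3 times above estrus (95% interval 28.7 to 274), SVX_VAS 114 times (44.2 to 419) and VAS, libraries 2 and 3 included, 71.9 times (27.9 to 265), with intervals for counting error only that overlapped throughout.

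Hdc had 278, 441, 414 and 379 CPM in SVX, 463, 275, 442 and 385 in SVX_VAS and 172, 171, 167 and 384 in VAS. The logFC against estrus was 3.37, 3.42 and 2.61 (edgeR, FDR 3.99e-06, 4.92e-06 and 2.93e-05). VAS libraries 1 to 3 were close to one another and below each library of the other mated groups, and VAS library 4 was not. Without VAS libraries 2 and 3 the logFC of VAS was 2.93.

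Il13ra2 had 33.8, 45.6, 49.9 and 48.1 CPM in SVX, 47.7, 33.1, 41.8 and 31.9 in SVX_VAS and 13.7, 31.2, 32.0 and 53.6 in VAS. VAS held both the lowest and the highest of the 16 mated libraries, the lowest being 1.24 times the highest estrus library. The logFC was 2.51, 2.31 and 2.07 (edgeR, FDR 6.47e-05, 1.57e-04 and 3.51e-04), and 2.10 for VAS without libraries 2 and 3.

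Fst had 50.6, 65.6, 70.9 and 76.5 CPM in SVX, 56.7, 65.9, 64.9 and 47.4 in SVX_VAS and 25.1, 56.2, 51.3 and 70.0 in VAS. Among the 6 called members it had the smallest spread over the 16 mated libraries (SD of 0.46 on the log2 scale), and its logFC was 4.20, 4.04 and 3.82 (edgeR, FDR 2.53e-06, 4.34e-06 and 5.88e-06). For VAS without libraries 2 and 3 it was 3.72.

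Lrp2 had 1027, 2356, 2243 and 1800.2 CPM in SVX, 2341, 1279, 2177 and 1692 in SVX_VAS and 371, 696, 735 and 1586 in VAS. The first 3 VAS libraries were the lowest of the 16 mated ones, and all lay above estrus. The logFC was 5.11, 5.12 and 3.98 (edgeR, FDR 2.05e-06, 2.92e-06 and 1.09e-05), and 4.19 for VAS without libraries 2 and 3.

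Gata2 varied least, between 98.9 and 155 CPM over the 16 mated libraries (SD of 0.20 on the log2 scale). Its logFC was 0.13 in SVX, 0.26 in SVX_VAS and 0.08 in VAS (edgeR, FDR 0.476, 0.158 and 0.668), and 0.17 in VAS without libraries 2 and 3. No edgeR, DESeq2 or limma-voom alternative called it against estrus.

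Sox17 had 172, 208, 218 and 173 CPM in SVX and 201, 176, 242 and 204 in SVX_VAS, all above the highest estrus library. In VAS it had 142, 105, 109.9 and 197 CPM, a range that held all the estrus libraries. The logFC was 0.60 in SVX (95% interval 0.13 to 1.08, edgeR FDR 0.0295), 0.70 in SVX_VAS (0.22 to 1.17, FDR 0.0155) and 0.12 in VAS (-0.34 to 0.59, FDR 0.642). The 2 calls lay close to the cutoffs. The call in SVX was lost without estrus library 1 (FDR 0.0970), estrus library 2 (FDR 0.0947), SVX library 2 (FDR 0.0624) or SVX library 3 (FDR 0.0720), and that in SVX_VAS without estrus library 1 (FDR 0.0604) or 2 (FDR 0.0573). VAS libraries 2 and 3 had the lowest Sox17 of the 16 mated libraries, and without them the logFC of VAS was 0.42 (FDR 0.134).

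Among the mated groups themselves, no member was called. In SVX, SVX_VAS and VAS against INT, edgeR called 0 of 17222 genes in each (0%), while 749, 339 and 1831 genes had an unadjusted p under 0.05, none of them a member. DESeq2 called 3, 2 and 0 genes and limma-voom 0, 0 and 1663, again with no member. Without VAS library 1 or VAS library 4, edgeR called 576 and 134 genes in VAS against INT, and no member in either. No member had groups that did not overlap, as 2.6%, 1.75% and 1.23% of all genes did not.

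**Figure D3:**
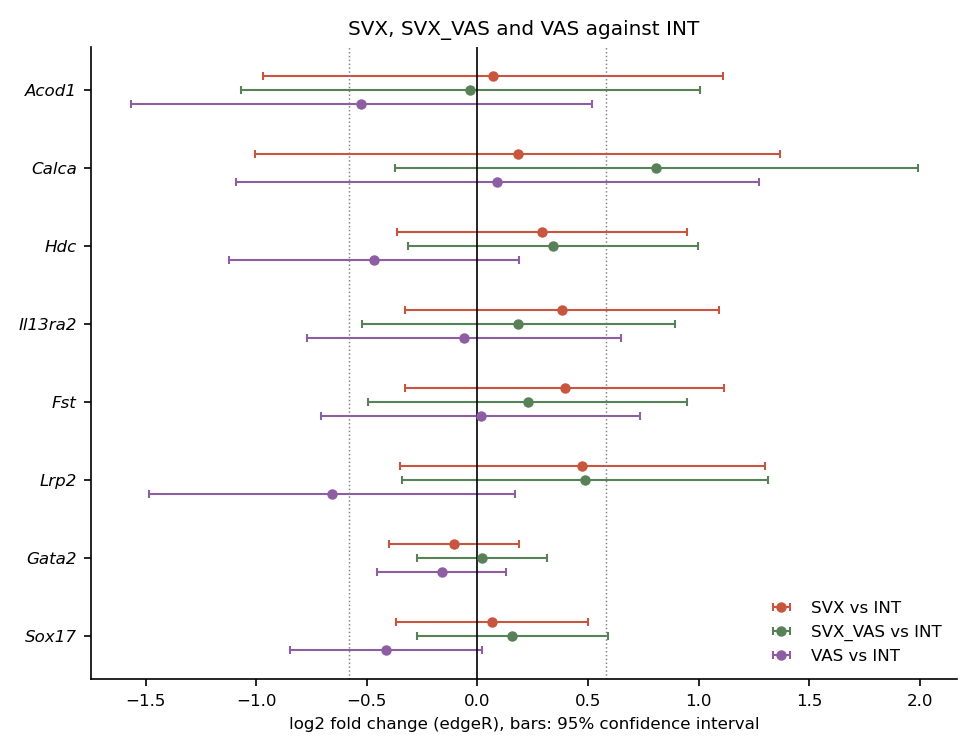
Log2 fold change of the 8 members (rows) in SVX, SVX_VAS and VAS against INT from edgeR's fit (horizontal axis), with 95% confidence intervals as bars; dotted lines mark the cutoff on the logFC in either direction. Each interval crossed 0, the widest being those of Calca and Acod1 and the narrowest those of Gata2.

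The intervals show how large a difference could have been missed. For Calca in SVX_VAS against INT, the largest logFC in size among these comparisons, the value was 0.81 (95% interval -0.37 to 1.99). For Lrp2 in VAS the logFC was -0.66 (-1.49 to 0.17), for Acod1 -0.52 (-1.57 to 0.52), for Hdc -0.47 (-1.12 to 0.19) and for Sox17 -0.41 (-0.85 to 0.02). Without VAS libraries 2 and 3 the logFC was -0.45 for Lrp2, -0.63 for Acod1, -0.15 for Hdc and -0.12 for Sox17. The intervals of Gata2 lay between -0.45 and 0.31, those of the other members allowed a change past that cutoff in at least 1 of the 3 comparisons, and a p above the threshold does not show that the groups were alike.

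One mated library stood low for several members. VAS library 1 had the lowest Acod1, Calca, Il13ra2, Fst and Lrp2 of the 16 mated libraries, the third lowest Hdc and Sox17 and the seventh lowest Gata2. It also held 709 CPM of Ltf, a gene that estrogen induces in the epithelium, and 2226 CPM of the epithelial marker list. Both lay above the other 3 VAS libraries. The highest Ltf of the mated libraries was in SVX_VAS library 2 (2286 CPM) and INT library 1 (2143 CPM), beside 1863 to 2829.9 at estrus. SVX_VAS library 2 had the lowest Acod1 (57.5), Hdc (275), Lrp2 (1279) and Sox17 (176) of its group, and its Calca (8.98) and Fst (65.9) were not the lowest. INT library 1 had the lowest Acod1 (51.0), Sox17 (142) and, close to INT library 3, Gata2 (99.7) of its group, and its Lrp2 (1208) was the second highest. The part of estrogen-driven genes in the members' levels was not tested.

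The labelled tissue was checked against its markers. Stromal markers (Pdgfra, Dcn, Col1a1, Col1a2 and Hoxa11) summed to 4319 to 4653 CPM at estrus and 1345 to 6608 in mated libraries, with VAS 2 and 3 the lowest. Smooth muscle markers (Myh11, Acta2, Tagln, Des and Cnn1) summed to 290.3 to 662 CPM at estrus and 280.4 to 1185 in mated libraries, although the endometrium had been scraped from the myometrium.

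Markers of other cell types moved between the stages. The summed CPM of 7 epithelial markers (Epcam, Krt8, Krt18, Krt19, Krt7, Cdh1 and Cldn3) was 3809 to 5209 at estrus and lower in each mated library, with 741 to 2562 in INT, 795 to 1096 in SVX, 935 to 1960 in SVX_VAS and 527 to 2226 in VAS. In INT against estrus 5 of the 7 were called lower, as were 12.7% of all genes. The 6 risen members thus moved against the summed level of the epithelial list. Per 100 CPM of that sum, Gata2 was at 2.09 to 2.45 at estrus and 3.89 to 14.8 in INT, and Sox17 at 2.27 to 3.08 and 5.54 to 25.1, ratios whose denominator fell.

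Gland markers (Foxa2, Cxcl15, Prss28 and Prss29) summed to 4.13 to 14.2 CPM at estrus and 37.3 to 411 over the mated groups. In INT 3 of 4 were called higher, in SVX 4, in SVX_VAS 2 and in VAS 3 (2 without VAS libraries 2 and 3). Foxa2 and Cxcl15 lay above estrus in each mated library. Prss28 had 6.61, 4.01, 108 and 0.487 CPM in INT, and Prss29 had 10.97, 6.95, 185 and 0.974. INT library 4 lay within the estrus range for both. The highest sums, in INT library 3 and SVX libraries 1 and 4, came mostly from Prss28 and Prss29. Endothelial markers (Pecam1, Cdh5, Kdr, Tek and Emcn) summed to 136 to 207 CPM at estrus and 464 to 920 in mated libraries, with 5 of 5 higher in INT. Of all genes 20.9% were called higher there. Sox17 is also known from endothelium, and its libraries with the lowest level, VAS 2 and 3, had 544 and 577 CPM of the endothelial list. The part of either list in the members' changes was not tested.

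Markers of other cell types known to use single members were examined next. Hdc is known from mast cells, and their defining genes Cpa3, Cma1, Mcpt4, Tpsb2 and Ms4a2 reached at most 0.927, 0.649, 0.374, 0.376 and 0.0731 CPM in any library. Mrgprb2, another mast cell marker, had 0.226 to 0.606 CPM at estrus and at most 0.0751 in INT and 0.185 in any mated library. Kit alone of the mast cell list passed the filter, and it rose (logFC 1.52, edgeR FDR 6.19e-06). For Calca, known from sensory neurons, the 5 neuronal markers summed to 0.827 to 1.13 CPM at estrus and 1.82 to 4.63 in mated libraries. Acod1 is known from activated macrophages and neutrophils. The macrophage list summed to 100.3 to 165 CPM at estrus and 153 to 251 in mated libraries. In INT 3 of its 5 genes were called higher (20.9% of all genes were) and 1 lower (12.7%). The neutrophil list summed to 9.79 to 11.8 CPM at estrus and 1.02 to 31.2 in mated libraries, with the highest values in VAS 2 and 3. Within the neutrophil list, Ly6g went from 6.99 to 11.2 CPM at estrus to 0.170 to 3.07 in INT and, the one tested, was called lower (logFC -2.54, edgeR FDR 0.0137), while Cxcr2 went from at most 0.0753 CPM to 0.567 to 0.877. In VAS 2 and 3, S100a8 (6.30 and 7.99), S100a9 (6.63 and 10.1) and Cxcr2 (8.11 and 11.8) made up most of the sum. The part of these lists in the members' changes was not tested. The 5 blastocyst markers summed to 1.36 to 2.89 CPM at estrus and 4.88 to 11.4 in mated libraries. Eomes, which lymphocytes also use, was the one tested and was called higher in INT (logFC 1.61, edgeR FDR 0.00234) and in the other mated groups (1.45 in VAS without libraries 2 and 3), Tfap2c went from 0.321 to 0.603 CPM at estrus to 0.742 to 4.25, and Cdx2, Pou5f1 and Nanog reached at most 0.0712, 0.0727 and 0.150 CPM. Their part in the members' changes was not tested.

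**Figure D4:**
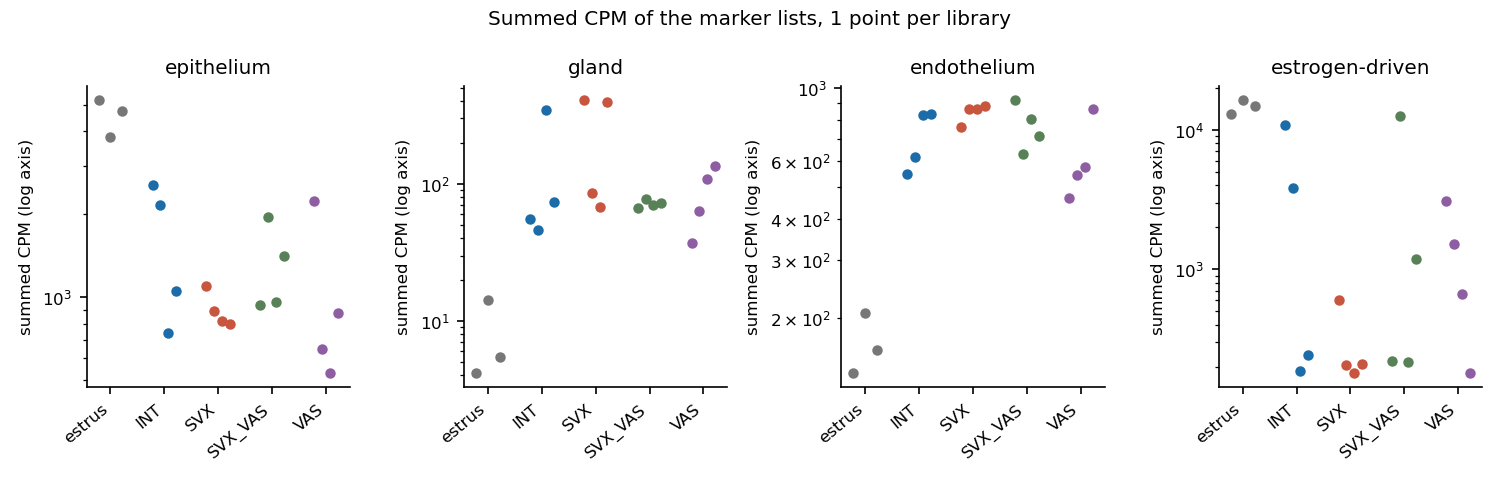
Summed CPM of the marker lists for epithelium, gland, endothelium and estrogen-driven epithelium (vertical axes, logarithmic) in each library (points) of estrus, INT, SVX, SVX_VAS and VAS (horizontal axes). Each mated library lay below estrus for the epithelial list and above it for the gland and endothelial lists, while the estrogen-driven list ranged from 179 to 12587 CPM in mated libraries.

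Genes known to respond to progesterone in epithelium or stroma were examined as a list, together with the receptor and genes that act with it, such as Fkbp4 and Ncoa2. The counts are therefore not those of induced genes alone. Of 32 listed genes, 14 were called higher in INT against estrus (20.9% of all genes were), 5 lower (12.7%) and 13 not called. The median logFC was 0.33 beside -0.01 over all genes. The falls were those of Greb1, Muc1, Klf5, Wnt4 and Prlr, and by glmTreat the last 4 of these were not called (FDR 0.0671 to 0.159). Leaving out estrus library 1, 2 or 4 or INT library 3 or 4, each in turn, ended the calls of Muc1 (FDR 0.0552 to 0.0827) and Wnt4 (FDR 0.0675 to 0.125), that of Wnt4 was also lost without INT library 2 (FDR 0.0668), with upper quartile scaling (FDR 0.0598) and with no filter (FDR 0.0636), and that of Prlr without estrus library 2 (FDR 0.0915). Those that rose included Ihh (4.52), its stromal target genes Ptch1 (2.39) and Gli1 (4.84), the growth factor Areg (5.14) and the retinoic acid-degrading enzyme Cyp26a1 (5.38), the largest rise of the list. The largest fall was that of Greb1 (-2.50), an estrogen-responsive cofactor. The receptor itself, Pgr, had a logFC of 0.23 (SE 0.29, edgeR FDR 0.544). Against estrus the list had 16 higher and 7 lower in SVX, 15 and 6 in SVX_VAS and 13 and 9 in VAS (14 and 3 without VAS libraries 2 and 3). Over all genes 23.1% were higher and 18.5% lower in SVX, 22.2% and 16.5% in SVX_VAS and 23.3% and 17.3% in VAS.

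Ihh had 0.473, 1.03 and 3.39 CPM at estrus and 23.4, 23.9, 48.5 and 46.7 in INT. Its groups did not overlap, as those of the 6 members and of 62.3% of all genes did not. Cyp26a1 was the least even of the list. It had 3.23, 4.13, 102 and 1.95 CPM in INT, and library 3 alone held most of that group's signal. Limma-voom did not call Cyp26a1 (FDR 0.462), and edgeR did not without INT library 3 (logFC 2.18, FDR 0.178), estrus library 1 (5.13, FDR 0.0678) or estrus library 2 (5.0, FDR 0.0660).

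**Figure D5:**
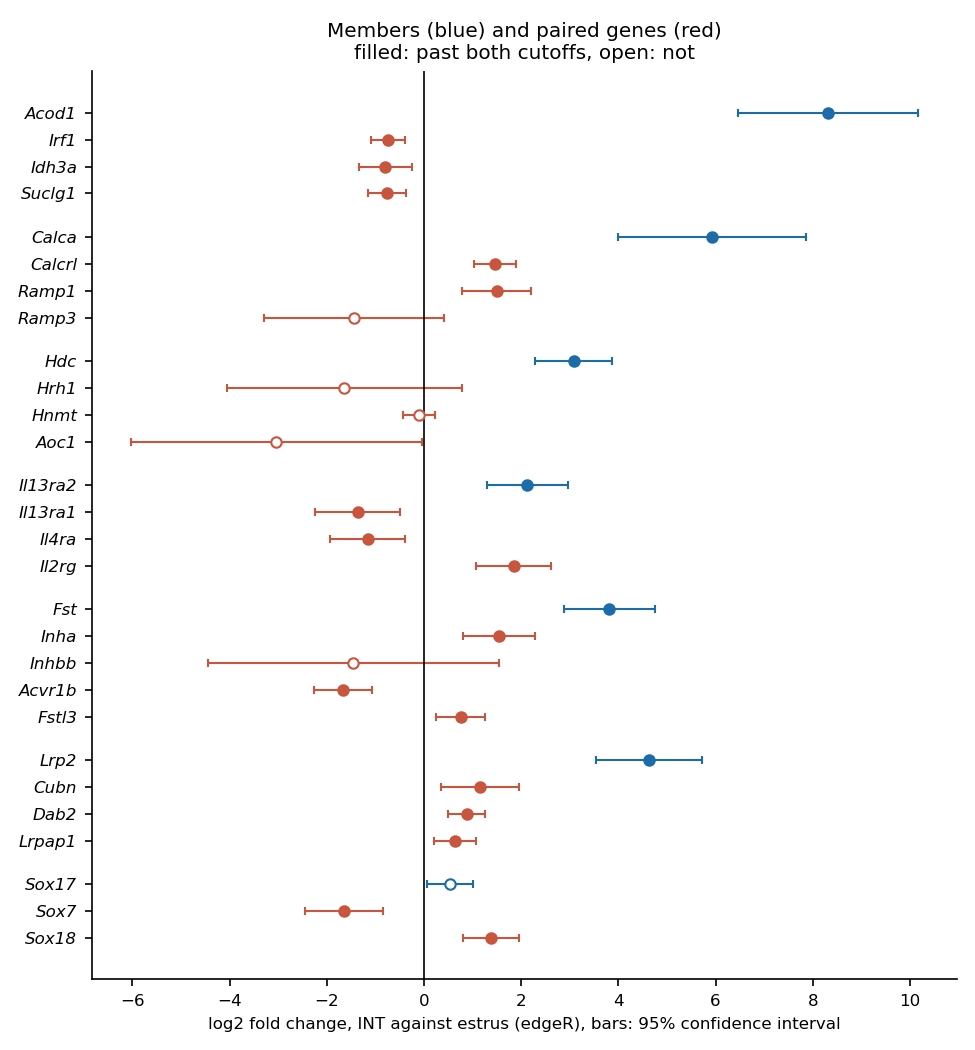
Log2 fold change in INT against estrus from edgeR (horizontal axis) of 7 members (blue) and of genes that act with each (red), with 95% confidence intervals as bars; filled points passed both cutoffs and open points did not. The calcitonin peptide receptor subunits Calcrl and Ramp1 and the megalin partners Cubn, Dab2 and Lrpap1 were higher together with Calca and Lrp2, and the signalling receptors Il13ra1 and Il4ra were lower while Il13ra2 was higher.

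Of the genes of calcitonin peptide signalling, 6 of 8 were tested and 2 rose in INT. The calls together are near the 33.6% of all genes called there, with 20.9% higher. Calcrl, the receptor that binds CGRP together with Ramp1, had 34.0, 56.7 and 42.6 CPM at estrus and 99.0, 108, 152 and 128 in INT (logFC 1.45, SE 0.20, edgeR FDR 3.99e-05). Ramp1 had 6.91, 15.1 and 9.64 CPM at estrus and 29.0, 19.4, 35.4 and 35.5 in INT (logFC 1.49, SE 0.33, FDR 0.00165). For each, the groups did not overlap, as they did not for 62.3% of all genes. Ramp3, which makes Calcrl a receptor of adrenomedullin, had a logFC of -1.43 (95% interval -3.29 to 0.42, FDR 0.192), and was called with only these 2 groups in the fit (FDR 0.0441). Calcr, the calcitonin receptor, did not pass the filter and reached at most 0.107 CPM. Calcrl and Ramp1 were also called higher in SVX, SVX_VAS and VAS, with a logFC of 1.60 and 1.86, 1.39 and 1.76, and 1.26 and 1.48 (1.33 and 1.31 without VAS libraries 2 and 3).

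Among 8 genes of histamine reception and clearance, 4 were tested and none was called in INT by edgeR, which called 33.6% of all genes. Aoc1, the diamine oxidase that degrades histamine outside cells, had 557, 861 and 527 CPM at estrus and 234, 75.5, 3.74 and 3.69 in INT. Each INT library was below estrus, and they spread over a wide range among themselves. The logFC was -3.04 (95% interval -6.03 to -0.05, FDR 0.0878), and DESeq2 (FDR 0.0481), limma-voom (FDR 0.0207) and edgeR without INT library 1 (FDR 0.0272) called it. In SVX, SVX_VAS and VAS it was called lower, with a logFC of -7.54, -4.36 and -4.19, and the call in VAS was lost without VAS libraries 2 and 3 (-4.96, FDR 0.0548). Hnmt, the methyltransferase that inactivates histamine within cells, had a logFC of -0.10 (95% interval -0.44 to 0.23), a direction that turned with upper quartile scaling, and the receptor Hrh1 one of -1.64 (-4.05 to 0.77, FDR 0.255), which limma-voom called (FDR 0.0284).

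The signalling receptors that share ligands with Il13ra2 were lower in INT than at estrus. Il13ra1, the signalling receptor of interleukin 13, had 249.9, 205 and 222 CPM at estrus and 151, 99.5, 51.6 and 48.4 in INT (logFC -1.37, SE 0.41, edgeR FDR 0.0119). Il4ra, its partner chain, had 316, 322 and 275 CPM at estrus and 215, 183, 80.3 and 67.2 in INT (logFC -1.16, SE 0.37, FDR 0.0158). Tested by glmTreat against the cutoff itself, neither call held in INT (FDR 0.0637 and 0.0988). INT libraries 1 and 2, the lower ones for Il13ra2, were the higher ones for both. Il2rg, the common chain, rose (1.84, FDR 6.52e-04), and Stat6 had -0.50, under the cutoff in size. The cytokine Il13 reached at most 0.542 CPM in any library and was not tested. Il13ra1 and Il4ra were called lower in each of SVX, SVX_VAS and VAS as well, with a logFC between -2.11 and -1.39, and in VAS without libraries 2 and 3 (-1.74 and -1.20).

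Of 10 genes of activin signalling 9 were tested, and in INT 4 rose (20.9% of all genes did) and 1 fell (12.7%). The fall was that of Acvr1b, the type I receptor of activin (logFC -1.67, SE 0.28, edgeR FDR 1.82e-04), with 218, 207 and 229 CPM at estrus and 98.4, 80.1, 45.2 and 50.6 in INT. The ligand subunit gene Inhbb ranged from 1.67 to 124 CPM within INT against 130 to 146 at estrus and was not called (-1.45, FDR 0.428). Inha, the inhibin subunit gene, rose (1.54), as did Bmp7 (1.52), Fstl1 (1.27) and the follistatin relative Fstl3 (0.76). The call of Fstl3 was lost by glmTreat (FDR 0.301) and without estrus library 1 (FDR 0.0804) or INT library 3 (FDR 0.0903).

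Megalin's partners rose with it by smaller amounts. Of 8 genes 7 were tested, and in INT 5 rose (20.9% of all genes did) and none fell (12.7%). Cubn, the co-receptor cubilin, had 1.89, 2.64 and 2.03 CPM at estrus and 5.19, 3.82, 3.68 and 7.03 in INT (logFC 1.16, SE 0.38, edgeR FDR 0.0185), and limma-voom did not call it (FDR 0.0964). The adaptor Dab2 (0.88, FDR 7.64e-04) and the receptor-associated chaperone Lrpap1 (0.64, FDR 0.0159) rose, as did the related receptors Vldlr (1.46) and Lrp1 (0.72). By glmTreat the calls of Cubn, Dab2, Lrpap1 and Lrp1 were lost (FDR 0.0741 to 0.493). Leaving out estrus library 1 ended the calls of Cubn (FDR 0.0726), Lrpap1 (FDR 0.0624) and Lrp1 (FDR 0.0925), leaving out estrus library 4 those of Cubn (FDR 0.0587) and Lrp1 (FDR 0.0583), and leaving out INT library 4 those of Cubn (FDR 0.0630) and Lrpap1 (FDR 0.0627). Amn, the protein that anchors cubilin, did not pass the filter and reached at most 0.535 CPM. Lrp8, another related receptor, was not called in INT (-1.68, FDR 0.0575) and was called lower in SVX and SVX_VAS.

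Genes around itaconate moved in both directions while Acod1 rose. Of 11 genes of the citrate cycle and of itaconate handling, 1 rose in INT, Idh2 (0.84), and 5 fell, Idh1 (-0.76), Idh3a (-0.80), Suclg1 (-0.76), Suclg2 (-0.77) and Irf1 (-0.74). Of all genes 20.9% rose there and 12.7% fell. Irf1, a transcription factor known to induce Acod1 in macrophages, had 140.2, 135 and 139 CPM at estrus and 103, 93.5, 61.9 and 72.8 in INT (edgeR FDR 0.00129). Tested by glmTreat against the cutoff on the logFC itself, none of these 6 calls held, with an FDR of 0.124 to 0.266. The call of Idh3a was also lost without estrus library 1 (FDR 0.0771) or INT library 4 (FDR 0.0548), and that of Idh1 with only the 2 groups compared in the fit (FDR 0.0523).

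Among the relatives of the 2 transcription factors, 8 of 9 were tested, and in INT 1 rose and 2 fell. The calls together are near the 33.6% of all genes called there. Sox18, which with Sox7 and Sox17 forms 1 subgroup of the family, rose (1.38, SE 0.27, edgeR FDR 5.96e-04) and Sox7 fell (-1.64, SE 0.38, FDR 0.00190). Sox9 fell as well (-1.04, FDR 0.0299), a call lost by glmTreat (FDR 0.168) and without any 1 of the 3 estrus libraries, INT library 2 or INT library 4 (FDR 0.0525 to 0.0883). Gata3 (0.69, FDR 0.0654) and Gata6 (0.45, FDR 0.384) were not called.

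The members varied together in part over the 16 mated libraries. As a description over libraries that share groups and scaling, the correlation of log2 CPM was highest for Hdc with Lrp2 (Pearson r = 0.95), Hdc with Sox17 (0.92), Il13ra2 with Fst (0.92) and Acod1 with Il13ra2 (0.91). It was lowest for Fst with Gata2 (0.14). Without VAS libraries 2 and 3 these values were 0.97, 0.87, 0.93, 0.91 and 0.15 over 14 libraries, and the largest moves of the 28 pairs were those of Calca with Sox17, from 0.30 to 0.66, and of Calca with Hdc, from 0.47 to 0.75.

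The tested gene most like each member over the same 16 libraries was Itga1 for Acod1 (r = 0.94), Lrrc7 for Calca (0.95), Fam189a2 for Hdc (0.99), Tcaf1 for Il13ra2 (0.99), Acss3 for Fst (0.96), Npl for Lrp2 (0.98), Vamp2 for Gata2 (0.83) and Zmpste24 for Sox17 (0.96). Among the next were Crispld1 and Gprc5b for Acod1, Ryr3 and Cth for Calca, Acot7 and Etnk1 for Hdc, Tfpi and D630045J12Rik for Il13ra2, Ramp1 and Cxcl12 for Fst, Jam2 and Acot7 for Lrp2, Slc25a48 and Gm9974 for Gata2, and Slc25a48 and Slc9a3r2 for Sox17. Ramp1 was thus among the 3 genes most like Fst (r = 0.95), and Acot7 was among those of both Hdc and Lrp2 (r = 0.97 for each). No other member was among the 3 genes most like any member. Over the 14 libraries without VAS 2 and 3, r of the genes most like each member lay between 0.83 (Vamp2 with Gata2) and 0.99 (Tcaf1 with Il13ra2), and the largest move among all those named was that of Slc9a3r2 with Sox17, from 0.95 to 0.89.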

How the data were processed

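Endometrial RNA was sequenced in 19 libraries made with a stranded total RNA kit. According to the study's methods, the authors trimmed adapters, aligned reads with STAR to GRCm38 and counted them per gene with featureCounts; FastQC, limma and edgeR are also named in the submitters' processing notes. The authors deposited raw counts per gene, with no normalization.

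From these counts, CPM were computed with TMM factors. A gene was kept if 3 or more libraries, counted over all 19 together, had 3 CPM or more. Tests were run in R 4.3.3 by edgeR 4.0.16 (glmQLFit and glmQLFTest, 5 groups in 1 fit, no replicate block). SE were taken from the logFC and its F value and are approximate. Log2 CPM used a prior count of 2. Gene positions were those in the deposited counts, and overlaps came from GENCODE M21, in which Fst has other ends, promoters from RefSeq, and symbols were found for 48349 genes. Total counts set the counting error, while the SE also hold the spread between libraries. Intervals of ratios (95%) cover counting error only.

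Genes were named by a rule: the 8 members, genes that pair directly with them, the largest rise and fall of a list, and the 3 genes most correlated with each member. The members and all lists were chosen with earlier results of these data known, and the listed genes are no independent evidence. Alternatives were edgeR with size factors from DESeq2 or with upper quartile scaling, 3 other filters, DESeq2 1.42.0, limma-voom (limma 3.58.1), glmTreat at the cutoff on the logFC, only the 2 groups compared, a replicate block and each library left out. Leaving out VAS libraries 2 and 3 was chosen after the data were seen. No pair of libraries of a group agreed within sampling noise (lowest chi-square per degree of freedom 2.93). Figures were drawn with Python 3.11.15 and matplotlib 3.10.9. Results for some genes are not reported here. Protein, hormone levels and reads were not analysed here.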

Additional observations from a re-analysis of the deposited data

Results flagged for a closer look

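Hdc in INT library 4, at 465 CPM, was far from the other 3 INT libraries, which had 248 to 264 CPM, and the gap was 0.903 of the group's range on the log2 scale. Hdc in VAS library 4, at 384 CPM, was likewise far from the other 3 VAS libraries, at 167 to 172 CPM, with a gap of 0.962 of the range. VAS libraries 2 and 3, whose composition stood apart, are 2 of those 3, and without them VAS libraries 1 and 4 alone remain, at 172 and 384 CPM. Both exceed Dixon's limit for 4 libraries. In 32 sets of a member and a group, chance alone would flag about 1.6, and 2 were flagged. Without INT library 4 the logFC of Hdc in INT against estrus was 2.81, and without VAS library 4 that in VAS was 2.22; both remained called by edgeR.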

How the results depend on the processing

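In the comparisons with estrus, 6 members were called in INT, 7 in SVX, 7 in SVX_VAS and 6 in VAS. Limma-voom called 4, 5, 6 and 4, without Acod1 in each (FDR 0.0754 to 0.101) and without Calca in INT, SVX and VAS (FDR 0.0539 to 0.0787), at a similar logFC. Of all 17222 genes it called 6159, 7278, 6991 and 8758, where edgeR called 5791, 7163, 6655 and 6985. All other losses and gains among the members were of Sox17. Upper quartile scaling, which shifted the median logFC of all genes against estrus to between 0.12 and 0.16, called Sox17 in INT as well. The 3 other filters ended its call in SVX and glmTreat its calls in SVX and SVX_VAS. With 1 library left out, 6 or 7 members were called in INT, SVX and SVX_VAS, and 6 in VAS. The logFC of Acod1 in INT then ranged from 7.88 to 8.78, of Calca from 5.45 to 6.76, of Lrp2 from 4.30 to 4.79, of Fst from 3.45 to 4.34, of Hdc from 2.81 to 3.42 and of Il13ra2 from 1.91 to 2.48. Against INT no alternative called a member.

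The replicate block changed no call of a member; it called Aoc1 in INT against estrus (FDR 0.0428) and ended the call of Sox9 (FDR 0.0502). Whether same-numbered libraries were collected or processed together is not given in the sources used here. The correlation of their deviations from the group means ranged from -0.69 to 0.58 over 36 pairs (median 0.05). For pairs with other numbers the median was -0.03, and 4 of 19 libraries were most like one with their own number. These values describe likeness and cannot show whether the numbers mark a block.

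Some small differences that were not called turned direction. In SVX_VAS against INT that was Acod1 with the block (0.19) and limma-voom (0.063). In VAS against INT these were Calca with the block (-0.12), limma-voom (-0.13) and without VAS libraries 2 and 3 (-0.62), Il13ra2 with upper quartile scaling (0.0095), and Fst with no filter (-0.023), filterByExpr (-0.0034), the block (-0.035), limma-voom (-0.0034) and without VAS libraries 2 and 3 (-0.079). Hnmt in INT against estrus turned to 0.025 with upper quartile scaling. With 1 library left out, Gata2 ranged from -0.00032 to 0.16 and Sox17 from -0.094 to 0.27 in VAS against estrus. Against INT, Acod1 ranged from -0.13 to 0.50, Calca from -0.11 to 0.52, Gata2 from -0.19 to 0.041 and Sox17 from -0.039 to 0.29 in SVX, Acod1 from -0.23 to 0.40 and Gata2 from -0.060 to 0.17 in SVX_VAS, and Calca from -0.38 to 0.46, Il13ra2 from -0.41 to 0.19 and Fst from -0.19 to 0.26 in VAS. The cause of these changes was not tested.

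Depth limits Calca and Acod1 most, which rest on 4 and 16 counts over the 3 estrus libraries. The spread between 3 or 4 pools limits the comparisons among mated groups. Levels of single cell types, and the progesterone share of the difference between stages, were not measured.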
